A study of Mus musculus with 16 samples.

Results

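The 10 genes described here encode ligands (Tgfb1, Tgfb2, Tgfb3, Bmp7), receptors (Tgfbr1, Tgfbr2), a pseudoreceptor (Bambi) and SMAD proteins (Smad2, Smad3, Smad7) of transforming growth factor beta (TGF-beta) and bone morphogenetic protein (BMP) signalling. They were taken by gene symbol from a count table of 40879 symbols, and all 10 were found and passed the filter on low counts, as did 14665 symbols in all. RNA came from kidneys of male C57BL/6 mice, sequenced with a 3′ kit, which counts the ends of polyadenylated transcripts. The groups were Old+PM (3 libraries), Old+YM (3 libraries), Old (5 libraries, no treatment) and Young (5 libraries, 3 months of age). PM is Palmijihwang-tang and YM is Yukmijihwang-tang, herbal formulas taken by mouth. PM is the YM formula with cinnamon bark and aconite root added. Both were dosed at 100 mg/kg daily for 5 days of each week, between 19 and 24 months of age, although the design text in 1 place calls the dose of the PM mice one of YM. The sources used here do not give the age at which Old kidneys were sampled. The 3 aged groups had 5 months of acclimatization, per the labels. The labels do not say whether each library is from a mouse of its own, so p-values measure only the spread between these libraries.

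TGF-beta ligands are secreted in a latent form, stored in the matrix and released by integrins or thrombospondin. The active ligand joins a type II receptor (Tgfbr2) to a type I receptor (Tgfbr1), which phosphorylates SMAD2 and SMAD3, and these enter the nucleus with SMAD4. BMP ligands use other receptors and SMAD1, SMAD5 and SMAD9, and raise the Id genes. In the kidney TGF-beta drives matrix deposition in fibrosis, while BMP7 is made by tubules and podocytes and opposes it. SMAD7 is an inhibitor that the pathway induces against itself, and BAMBI is a receptor-like protein with no kinase that blunts TGF-beta signals.

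Sequence just upstream of 3 genes is shown because they stand at either end of the pathway, the transducer Smad3 and the target genes Id3 and Tgfbi, and all 3 were higher in Old than in Young kidneys. Each is the 250 bases before the start of the gene in RefSeq on GRCm38, written 5′ to 3′ on the strand of the gene. Smad3 lies at chr9:63757995-63758244 (minus strand), Id3 at chr4:136143572-136143821 (plus strand) and Tgfbi at chr13:56609336-56609585 (plus strand). Capitals mark CAGAC (the SMAD3/SMAD4 box, GTCTG on the other strand) and GGCGCC (a GC-rich element bound by SMADs of the BMP branch, the same on both strands).
Smad3: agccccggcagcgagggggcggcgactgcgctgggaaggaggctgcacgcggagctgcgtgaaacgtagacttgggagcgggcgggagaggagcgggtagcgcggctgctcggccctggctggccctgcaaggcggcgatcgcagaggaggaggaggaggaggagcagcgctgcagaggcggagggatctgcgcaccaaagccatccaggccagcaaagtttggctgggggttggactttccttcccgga
Id3: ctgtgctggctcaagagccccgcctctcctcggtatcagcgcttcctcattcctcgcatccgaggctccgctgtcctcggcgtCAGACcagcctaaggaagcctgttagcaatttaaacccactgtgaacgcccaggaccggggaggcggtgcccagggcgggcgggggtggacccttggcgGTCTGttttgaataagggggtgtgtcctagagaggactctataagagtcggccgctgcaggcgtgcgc
Tgfbi: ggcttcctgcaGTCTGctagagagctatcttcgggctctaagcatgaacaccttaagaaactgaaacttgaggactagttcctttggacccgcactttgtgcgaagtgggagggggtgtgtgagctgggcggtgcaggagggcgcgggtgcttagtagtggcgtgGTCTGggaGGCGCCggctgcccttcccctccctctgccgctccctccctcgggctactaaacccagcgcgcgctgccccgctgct
The Smad3 window held neither motif. The Id3 window held 2 CAGAC boxes on opposite strands, whose first bases lie 167 and 68 bases before the start. The Tgfbi window held 2 CAGAC boxes, 239 and 85 bases before the start, and 1 GGCGCC at 77 bases. No marked copies overlap. CAGAC is short and common: 42.2% of 32851 windows of this length held it on either strand, and 9.59% held GGCGCC. A window was found for 5 of the 10 genes, of which 3 held CAGAC and 1 held GGCGCC. Smad7 had no window. Of 73 further pathway genes, 52 had a window or several, and 27 of these held CAGAC and 14 held GGCGCC. Other target genes held fewer CAGAC boxes than Id3 and Tgfbi: Acta2 held 1, and Id2, Id4 and Atoh8 held none. These matches are letters in a window and say nothing of binding.

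Levels are given in CPM (counts-per-million of the library) after TMM scaling (trimmed mean of M-values), and since reads come from transcript ends they are compared between libraries, not between genes. Totals ran from 8223008 to 10914515 counts, so that 1 count was worth 0.0885 to 0.131 CPM. Changes are log2 fold changes from edgeR's quasi-likelihood test with their standard error (SE), with p-values adjusted by Benjamini-Hochberg over all 14665 genes and a threshold of 0.05. Markers of proximal tubule, loop of Henle, collecting duct and podocytes had counts in all 16 libraries. In a principal component analysis of the 2000 genes with the highest variance, component 1 (31.6% of variance) put all 5 Young libraries below 0, together with 2 aged ones, Old+PM 3 and Old 4. Old 4, at -6.37, lay nearer to 0 than the Young libraries, at -39.1 to -15.3.

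**Figure D1:**
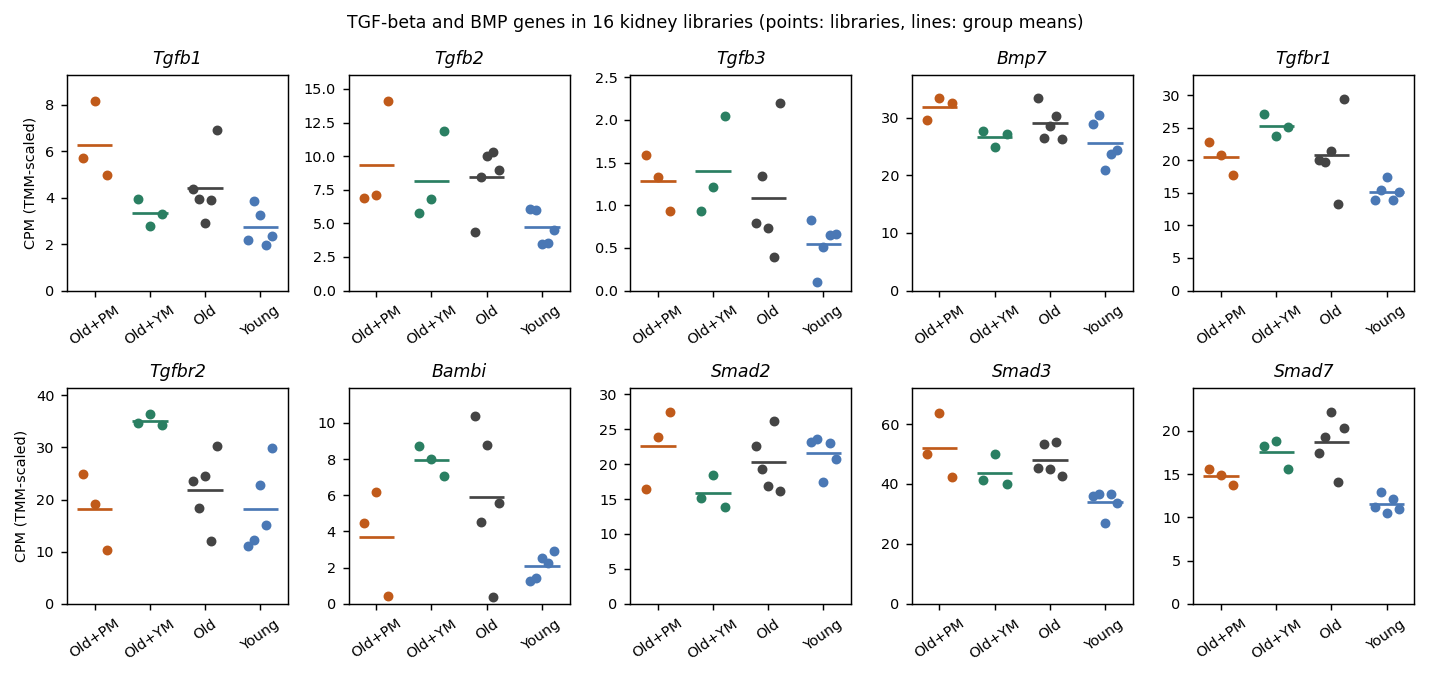
CPM of the 10 genes (vertical axes, linear, from 0) in each of the 16 libraries. Points are libraries and lines are group means, for Old+PM, Old+YM, Old and Young from left to right. All Old points of Smad3 and Smad7 lie above all Young points, while the other 8 genes overlap between Old and Young.

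The comparison of Old with Young kidneys asked what differs with natural ageing. Smad3 and Smad7, a transducer of TGF-beta and its feedback inhibitor, were higher in Old kidneys, by 0.50 (SE 0.13) and 0.69 (SE 0.14) on the log2 scale. None of the other 8 genes passed the test. That is 2 of 10 genes, both higher, beside 13.6% of all genes tested and 6.47% called higher in Old. At an unadjusted p under 0.05 it was 6 of 10, against 28.1% of all genes. Of the 10 log2 changes 9 were positive, against 52.6% of all genes, and their median was 0.595, against 0.0221 over all genes. Groups did not overlap for 2 of 10, against 9.19% of all genes. With Old 4 and Old+PM 3 left out, a choice made after seeing the data, 4 of 10 passed, with Tgfbr1 and Bambi added, while the share of all genes called was 20.9%.

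Smad3 encodes a main carrier of the transcriptional response to TGF-beta, and the gene spans chromosome 9, 63646767 to 63757994, minus strand, in GRCm38. It stood at 45.3, 53.3, 44.96, 53.9 and 42.7 CPM in Old 1 to 5, against 35.9, 36.8, 27.0, 36.7 and 33.6 CPM in Young 1 to 5. The lowest Old library lay above the highest Young one. Means were 48.0 ± 5.16 CPM in Old and 34.0 ± 4.10 CPM in Young (SD, n = 5 each), and edgeR gave an adjusted p of 0.0121. Old 4 had the highest Smad3 of the 5 Old libraries.

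Smad7 lies at chromosome 18, 75367529 to 75395935, plus strand. Its levels were 17.4, 19.2, 22.1, 14.1 and 20.4 CPM in Old 1 to 5, against 11.2, 12.9, 10.5, 12.1 and 10.9 CPM in Young 1 to 5. Again no Old library reached down to the Young range, although Old 4 came closest. The means of 18.7 ± 3.05 CPM in Old and 11.5 ± 0.965 CPM in Young (SD, n = 5 each) differed with an adjusted p of 0.00256 in edgeR. Both calls held in 23 of 23 alternative analyses, with log2 changes of 0.43 to 0.55 for Smad3 and 0.62 to 0.79 for Smad7. The third SMAD, Smad2 (chromosome 18, 76241580 to 76310963, plus strand), shares its receptor with Smad3. It was at 22.6, 19.3, 16.9, 26.2 and 16.2 CPM in Old 1 to 5, against 23.1, 23.6, 17.5, 23.0 and 20.8 CPM in Young 1 to 5. These ranges overlapped widely, and the log2 change was -0.09 (SE 0.16, adjusted p = 0.760 in edgeR). Whether Smad3 and Smad2 differ in their change was not tested.

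Of the ligands, Tgfb2 came closest to the threshold. This TGF-beta isoform (chromosome 1, 186622792 to 186705989, minus strand) was at 4.38, 8.42, 10.02, 10.3 and 8.99 CPM in Old 1 to 5, against 6.10, 6.00, 3.44, 3.56 and 4.47 CPM in Young 1 to 5. Old 1 sat inside the Young range and the other 4 Old libraries above it. The log2 change was 0.83 (SE 0.28), with an adjusted p of 0.0537 in edgeR and of 0.0337 in DESeq2. Without Old 1 the edgeR value was 0.998 and passed (adjusted p = 0.0223). It also passed in other fits: with upper quartile scaling (0.0446), with no filter on low counts (0.0413), without Old+PM 3 (0.0355) and without Old+YM 3 (0.0487). An exon of Tgfb2 overlaps Gm29491 on the opposite strand, and the strand setting of the counting is not given, so reads of the overlap cannot be told apart.

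Tgfb1, the isoform most tied to kidney fibrosis (chromosome 7, 25687002 to 25705077, plus strand), was at 4.38, 3.92, 2.92, 3.90 and 6.89 CPM in Old 1 to 5. In Young 1 to 5 it was at 2.17, 3.86, 3.24, 1.94 and 2.37 CPM. Old 5 was the highest of the 10 libraries and Old 3 lay inside the Young range. The log2 change of 0.69 (SE 0.28) had an adjusted p of 0.105 in edgeR. Tgfb3 (chromosome 12, 86056745 to 86079041, minus strand) was rare, at 0.390 to 2.20 CPM in Old and 0.102 to 0.827 CPM in Young, where the lowest library held a single count. Its exons overlap Gm37804 and Gm48008 on the other strand, and the log2 change of 0.99 (SE 0.55) had an adjusted p of 0.249. Without Old 5, the library with the highest Tgfb3, it was 0.57 (adjusted p = 0.611). Bmp7 (chromosome 2, 172868012 to 172940321, minus strand) was the ligand with the smallest log2 change. It had 33.4, 26.5, 28.6, 30.3 and 26.4 CPM in Old 1 to 5, against 28.8, 30.4, 20.9, 23.6 and 24.5 CPM in Young 1 to 5. The groups overlapped, with a log2 change of 0.18 (SE 0.12, adjusted p = 0.349 in edgeR), and of 0.11 without Young 3.

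The receptor results moved with single Old libraries. Tgfbr1, the type I receptor kinase (chromosome 4, 47353222 to 47414931, plus strand), was at 20.1, 19.8, 21.5, 13.4 and 29.4 CPM in Old 1 to 5, against 13.8, 15.5, 17.5, 13.9 and 15.1 CPM in Young 1 to 5. Old 4 was the lowest of all 10, and the other 4 Old libraries lay above every Young one. With all libraries the log2 change was 0.46 (SE 0.16, adjusted p = 0.0657 in edgeR). Without Old 4 it was 0.59, with an adjusted p of 0.0064, and without Old 5, the highest library, it was 0.295, with an adjusted p of 0.255. With upper quartile scaling and all libraries it passed (0.0458). Tgfbr2, the type II receptor that binds the ligand first (chromosome 9, 116084293 to 116175360, minus strand), spread widely within both groups. It was at 23.5, 18.4, 24.6, 12.1 and 30.4 CPM in Old 1 to 5, against 11.2, 12.3, 22.9, 15.2 and 29.8 CPM in Young 1 to 5. The log2 change was 0.26 (SE 0.30, adjusted p = 0.623 in edgeR). It was 0.41 without Old 4, 0.10 without Old 5 and 0.52 without Young 5, and did not pass in any of these fits.

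Bambi (chromosome 18, 3507923 to 3516404, plus strand) had the highest relative SD of the 10 genes among Old libraries, 65.7% of its mean. It was at 10.4, 4.50, 8.76, 0.390 and 5.59 CPM in Old 1 to 5, against 1.24, 1.42, 2.53, 2.27 and 2.89 CPM in Young 1 to 5. Old 4, with 4 counts, was below every Young library, and the other 4 Old libraries were above every Young library. The log2 change over all libraries was 1.52 (SE 0.64) with an adjusted p of 0.131 in edgeR, and without Old 4 it was 1.83 with an adjusted p of 0.0122. A pseudogene, Bambi-ps1, has its own row in the files, so reads shared with it make the Bambi counts uncertain.

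**Figure D2:**
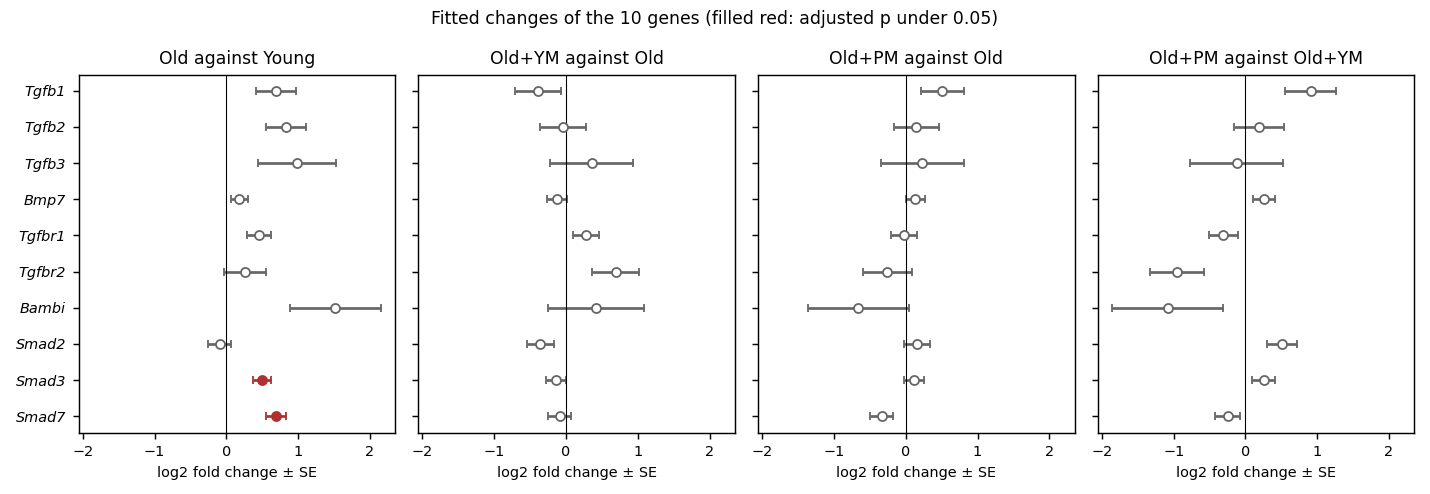
Fitted log2 fold changes (horizontal axes) of the 10 genes in the 4 comparisons, 1 panel each; points are edgeR estimates, bars are ± SE, and filled red points have an adjusted p under 0.05. The red points are Smad3 (0.50) and Smad7 (0.69) in Old against Young, and there are none in the 3 panels with treated kidneys.

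Around these 10 genes, a list of 73 further genes of the pathway was examined by role, of which 68 were tested. The list was chosen with earlier results of these data known. Between Old and Young 16 passed, 15 higher in Old and 1 lower, beside the 13.6% of all genes; the median log2 change of the 68 was 0.225, against 0.0221 over all genes. Ligands had 3 of 9 tested genes higher, storage and activation genes 4 of 12, receptors 1 of 11, intracellular inhibitors 1 of 10 and target genes 5 of 11. Secreted antagonists had 1 higher and 1 lower of 9, and none of 6 SMAD proteins and adaptors passed. Some of these calls were lost in part of the 23 alternatives. Among them, that of the target Col1a1 held in 8, of the intracellular inhibitor Smurf1 in 14 and of the storage gene Ltbp2 in 18. These 3 genes are named for that reason. Without Old 5 the log2 change of Col1a1 was 0.60 (adjusted p = 0.131 in edgeR). Groups did not overlap for 10 of the 68, beside 9.19% of all genes. With Old 4 and Old+PM 3 left out 21 of 68 passed, beside 20.9% of all genes.

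The target genes had the largest median log2 change of these 7 groups, 0.676. Tgfbi, a matrix protein named for its induction by TGF-beta, was at 11.9 to 34.5 CPM in Old, against 4.96 to 8.50 CPM in Young (log2 change 1.61, adjusted p = 0.00834 in edgeR). The groups did not overlap. Id1 and Id3, inhibitors of helix-loop-helix factors and the classic targets of BMP, also rose. Id1 was at 36.9, 41.8, 32.1, 16.3 and 16.9 CPM in Old 1 to 5, against 9.17 to 15.8 CPM in Young (log2 change 1.23, adjusted p = 0.00624). Id3 was at 144, 146, 167, 42.3 and 85.4 CPM in Old 1 to 5, against 24.0, 35.4, 33.8, 25.1 and 64.7 CPM in Young 1 to 5. Old 4 overlapped with Young, and the log2 change was 1.68 (SE 0.41, adjusted p = 0.0181), or 1.90 without Old 4 (adjusted p = 0.00498). The Id3 call was lost without Young 1 (adjusted p = 0.0506) or Young 4 (0.0537).

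Genes that store or release latent TGF-beta were the next group. Lrrc32 and Nrros encode membrane proteins that hold latent TGF-beta on regulatory T cells and on myeloid cells, and Thbs1 encodes thrombospondin 1, which can activate it. Lrrc32 averaged 17.0 ± 4.47 CPM in Old and 8.85 ± 1.21 CPM in Young (SD, n = 5 each; log2 change 0.94, adjusted p = 0.00239 in edgeR). Nrros averaged 13.0 ± 5.53 CPM in Old, against 5.25 ± 1.06 CPM in Young (log2 change 1.30, adjusted p = 0.0028), and Old 5 was highest at 22.3 CPM. Thbs1 averaged 8.63 ± 1.48 CPM in Old, against 4.52 ± 0.695 CPM in Young (log2 change 0.93, adjusted p = 0.00338). None of these 3 genes overlapped between the groups. Of the receptor genes, Tgfbr3 (betaglycan, a co-receptor that presents TGF-beta 2) was at 18.5 to 29.8 CPM in Old, against 14.5 to 18.4 CPM in Young (log2 change 0.64, adjusted p = 0.00813).

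Among the other ligands, Bmp6, a BMP known for iron regulation in the liver, was at 36.1 to 50.8 CPM in Old and 18.7 to 33.4 CPM in Young, with no overlap (log2 change 0.86, adjusted p = 0.00175 in edgeR). Inhbb, the activin beta B chain, was at 1.39 to 4.89 CPM in Old, against 0.101 to 0.930 CPM in Young (log2 change 2.19, adjusted p = 0.00783). The 5 Young libraries held 23 counts of Inhbb in all, so the size of this change is uncertain. Gdf10 averaged 6.27 ± 2.12 CPM in Old and 3.10 ± 0.902 CPM in Young (SD, n = 5 each; log2 change 1.01, adjusted p = 0.031). The Gdf10 call held in 17 of 23 alternatives and was lost without Old 1, Old 5, Young 2, Young 3 or Young 4 (adjusted p of 0.0539 to 0.0893) or with limma-voom (0.0728). Crim1, a membrane protein that binds BMPs, was at 102 to 117 CPM in Old, against 69.5 to 86.2 CPM in Young (log2 change 0.45, adjusted p = 0.00433). Sostdc1, a secreted BMP antagonist of the distal nephron named here after its values were seen as the only one of the 16 that was lower, averaged 89.7 ± 20.9 CPM in Old and 119 ± 14.6 CPM in Young. The log2 change of Sostdc1 was -0.41 (SE 0.13, adjusted p = 0.0405). Old 4, at 126 CPM, was within the Young range. The Sostdc1 call held in 12 of 23 alternatives and was lost without Young 1, 2, 3 or 4, Old 1, 2, 3 or 5, or Old+YM 2 (adjusted p of 0.0506 to 0.108). It was lost too with upper quartile scaling (0.0745) and with only both groups in the fit (0.0838).

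**Figure D3:**
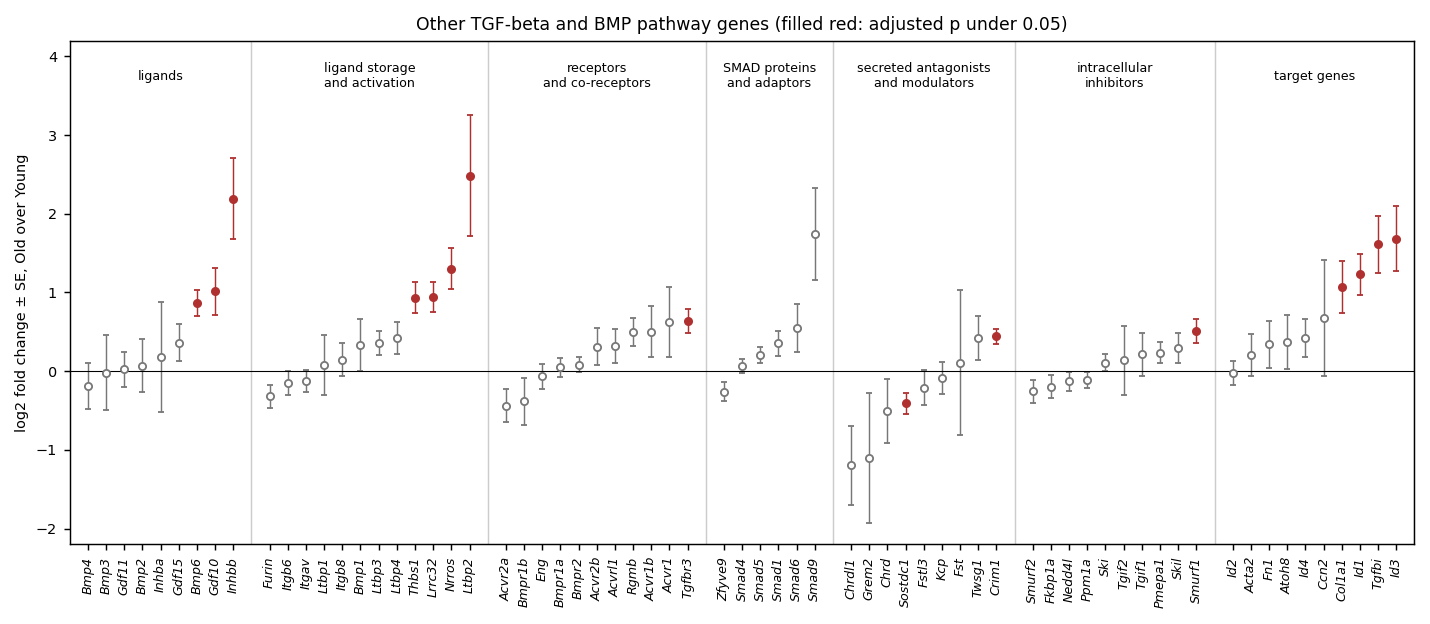
Log2 fold change ± SE of Old over Young (vertical axis) for 67 of the 68 tested genes of the wider list, grouped by role and ordered by size within each; filled red points have an adjusted p under 0.05. Of the 15 red points 14 lie above 0, among them Tgfbi at 1.61, Id3 at 1.68 and Inhbb at 2.19, and Sostdc1 lies below at -0.41.

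In bulk kidney RNA, fewer cells of a type and less RNA per cell cannot be told apart, and markers of other cell types moved with age beside these genes. Of 7 macrophage markers 5 were higher in Old and none lower. Their summed level was 121.5, 113.5, 92.1, 188 and 481 CPM in Old 1 to 5 and 103 to 132 CPM in Young. Only Old 4 and Old 5 lay above the Young range. Of 6 fibroblast markers Lum and Pdgfra were higher, and the sum was 117 to 350 CPM in Old and 89.8 to 142 CPM in Young. T and B cell markers, of which 3 of 6 were tested and none passed, summed to 51.0 CPM in Old 5, to 1.63 to 3.78 CPM in the other Old libraries and to 1.73 to 3.16 CPM in Young. Among kidney cells, 1 proximal tubule marker of 6 was higher and 1 lower, 1 of 5 loop and distal tubule markers was higher and 2 lower, and 1 podocyte marker of 6 was higher. Ehd3 alone of 7 endothelial markers passed, and it was lower. None of 6 collecting duct markers passed, and none had a positive log2 change (median -0.449). Their sum was 324 to 586 CPM in Old, highest in Old 4, and 430 to 595 CPM in Young. All 6 podocyte markers had a positive log2 change. Their sum was 242 to 275 CPM in Old and 205 to 218 CPM in Young, with no overlap. Sums of proximal tubule, loop and distal tubule, and endothelial markers overlapped. No fibroblast or macrophage marker was at 0 in any library, and Cd79a was at 0 in 12 of 16. None of the 3 liver or 3 adipocyte markers passed. The part of cell types in the changes of the pathway genes was not tested.

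The sources used here do not give the time of collection, and Dbp, a clock-controlled gene whose RNA cycles over the day, was far above the Young range in 4 of 5 Old libraries. Dbp was chosen after its values were seen. It was at 162, 182, 179, 12.3 and 127 CPM in Old 1 to 5, against 4.44 to 20.9 CPM in Young. Old 4, the Old library lowest in Bambi, Tgfbr1 and Id3, was also the lowest in Dbp, at a level inside the Young range. Old 4 was the lowest Old library in Smad7, Tgfb3 and Tgfbr2 too, but the highest in Smad3, Tgfb2 and Smad2. The part of the time of collection in the age differences was not tested.

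**Figure D4:**
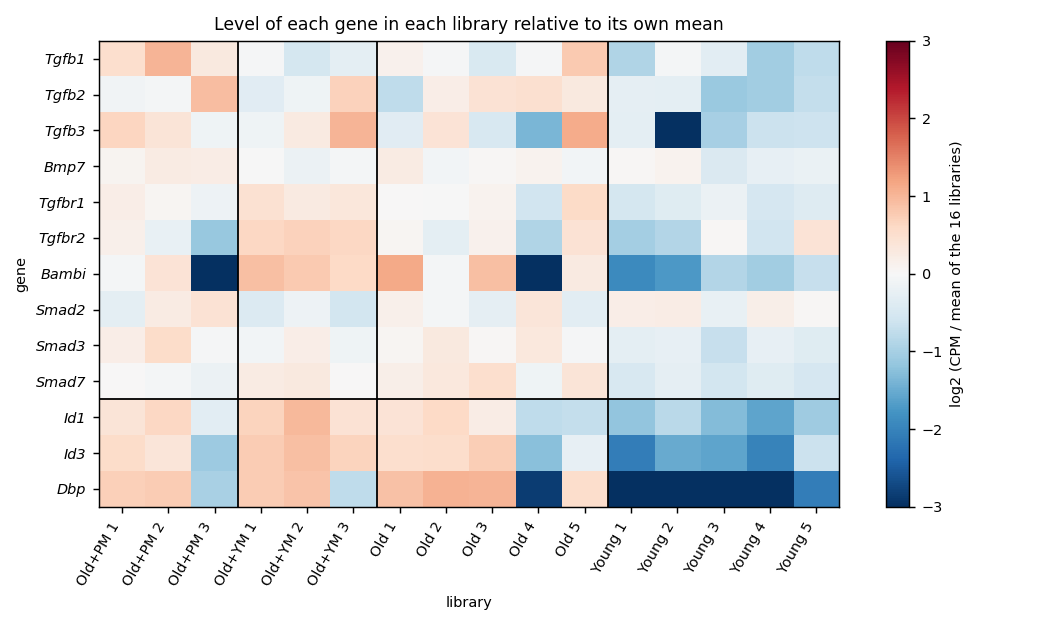
Log2 ratio of CPM to the mean of the 16 libraries (colour, held at -3 and 3 where values pass them) for the 10 genes, the targets Id1 and Id3, and Dbp (rows), in each library (columns, Old+PM, Old+YM, Old and Young from left to right). Smad3 and Smad7 are blue in all 5 Young libraries, and Bambi is dark blue in Old 4 and Old+PM 3 at 0.390 and 0.414 CPM.

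The comparison of Old+YM with Old asked whether the formula shifts aged kidneys. None of the 10 genes passed the test in edgeR, none had an unadjusted p under 0.05 (9.48% of all genes did), and none passed in DESeq2 or limma-voom. The background was 0.0205% of all genes called. The median log2 change was -0.07, against -0.03 over all genes. Smad3 was at 41.3, 49.9 and 39.9 CPM in Old+YM 1 to 3 and at 42.7 to 53.9 CPM in Old (log2 change -0.14, SE 0.14, adjusted p = 0.787). Smad7 was at 18.2, 18.9 and 15.5 CPM in Old+YM 1 to 3 and at 14.1 to 22.1 CPM in Old (log2 change -0.09, SE 0.16, adjusted p = 0.887). Both genes overlapped with Old, and a miss of the threshold with 3 treated libraries does not show that levels were alike.

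The gene with the most separate values was Tgfbr2. It was at 34.7, 36.4 and 34.4 CPM in Old+YM 1 to 3, against 23.5, 18.4, 24.6, 12.1 and 30.4 CPM in Old 1 to 5. All 3 Old+YM libraries lay above all 5 Old ones, and the log2 change was 0.69 (SE 0.33, adjusted p = 0.530 in edgeR). With Old 4 and Old+PM 3 left out it was 0.54. Tgfbr2 was the single gene of the 10 without overlap, against 9.10% of all genes. Tgfbr1 was at 27.1, 23.7 and 25.2 CPM in Old+YM 1 to 3 and at 13.4 to 29.4 CPM in Old. Bambi was at 8.69, 8.03 and 7.06 CPM in Old+YM 1 to 3 and at 0.390 to 10.4 CPM in Old. Both overlapped, and the 3 Old+YM libraries were closer together than the 5 Old ones. The log2 changes were 0.28 (SE 0.18) for Tgfbr1 and 0.42 (SE 0.67) for Bambi, and with Old 4 and Old+PM 3 left out 0.16 and 0.12. The ligands overlapped as well: Tgfb1 was at 2.80 to 3.93 CPM in Old+YM and 2.92 to 6.89 CPM in Old, Tgfb2 at 5.80 to 11.9 CPM in Old+YM and 4.38 to 10.3 CPM in Old. Tgfb3 was at 0.932 to 2.05 CPM in Old+YM and 0.390 to 2.20 CPM in Old, and Bmp7 at 24.9 to 27.6 CPM in Old+YM and 26.4 to 33.4 CPM in Old. Smad2 was at 15.2, 18.4 and 13.9 CPM in Old+YM 1 to 3 and at 16.2 to 26.2 CPM in Old (log2 change -0.36, SE 0.19, adjusted p = 0.571).

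Of the 68 further pathway genes none passed in Old+YM against Old, and 8 had an unadjusted p under 0.05, against 9.48% of all genes. The 3 with the smallest p are given as not passing. Id4, a relative of Id1, was at 36.2, 73.6 and 44.0 CPM in Old+YM 1 to 3, against 25.2, 27.6, 22.01, 11.99 and 18.9 CPM in Old 1 to 5 (log2 change 1.28, SE 0.27, adjusted p = 0.158 in edgeR and 0.00822 in DESeq2). Itgb6, an integrin chain that activates latent TGF-beta on epithelial cells, averaged 62.5 ± 7.92 CPM in Old+YM (n = 3) and 40.0 ± 6.43 CPM in Old (n = 5; SD), with a log2 change of 0.64 (adjusted p = 0.277). Tgfbr3 averaged 35.6 ± 2.03 CPM in Old+YM (n = 3) and 24.8 ± 4.09 CPM in Old (n = 5; SD), with a log2 change of 0.52 (adjusted p = 0.324). In all 3 genes, which were picked by their p, the Old+YM libraries lay above the Old ones. Groups did not overlap for 8 of the 68, against 9.10% of all genes. Without Young 5, which enters the shared estimate of spread, Id4 passed in edgeR (adjusted p = 0.0475).

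For Old+PM against Old, which shares its 5 Old libraries with the comparison above, none of the 10 genes passed in edgeR, DESeq2 or limma-voom, beside 0% of all genes called in edgeR. In edgeR 1 of 10 had an unadjusted p under 0.05, against 6.16% of all genes, and none was without overlap, against 4.02%. That gene was Smad7. It was at 15.6, 15.0 and 13.8 CPM in Old+PM 1 to 3, against 17.4, 19.2, 22.1, 14.1 and 20.4 CPM in Old 1 to 5. The Old+PM libraries sat at the low end of the Old range, near Old 4 and above the Young range of 10.5 to 12.9 CPM. The log2 change was -0.34 (SE 0.16, adjusted p = 0.801 in edgeR). Smad3 was at 49.9, 63.7 and 42.3 CPM in Old+PM 1 to 3 and at 42.7 to 53.9 CPM in Old (log2 change 0.11, SE 0.14, adjusted p = 0.920).

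Bambi was at 4.47, 6.19 and 0.414 CPM in Old+PM 1 to 3, and Tgfbr2 at 25.0, 19.2 and 10.2 CPM. Old+PM 3 had the lowest value of both genes, with 4 counts of Bambi, as Old 4 had among Old libraries. The log2 change of Bambi against Old was -0.66 (SE 0.70) with all libraries and -0.45 (SE 0.36) without Old 4 and Old+PM 3. That of Tgfbr2 was -0.26 (SE 0.34) and -0.13 (SE 0.31). Tgfbr1 was at 22.8, 20.8 and 17.8 CPM in Old+PM 1 to 3, with a log2 change against Old of -0.02 (SE 0.18). Tgfb1 was at 5.69, 8.14 and 4.97 CPM in Old+PM 1 to 3 and 2.92 to 6.89 CPM in Old (log2 change 0.51, SE 0.30, adjusted p = 0.843). Tgfb2 was at 6.90, 7.08 and 14.1 CPM in Old+PM 1 to 3, of which Old+PM 3 was the highest of the 16 libraries. Its log2 change was 0.15 with it and -0.27 without it. Tgfb3 at 0.932 to 1.59 CPM, Bmp7 at 29.6 to 33.4 CPM and Smad2 at 16.5 to 27.4 CPM in Old+PM overlapped with Old. Of the 68 further genes none passed and 3 had an unadjusted p under 0.05, against 6.16% of all genes. These were Itgb8, the chain of another integrin that activates TGF-beta (log2 change -0.57), Kcp, a secreted modulator that strengthens BMP signals (0.52), and Sostdc1 (0.33), all with an adjusted p of 0.790 in edgeR.

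The formulas were also compared with each other. None of the 10 genes passed in Old+PM against Old+YM in edgeR, DESeq2 or limma-voom, beside 0% of all genes in edgeR. In edgeR 3 of 10 had an unadjusted p under 0.05, against 12.8% of all genes, and 5 of 10 did not overlap, against 23.8%. Tgfb1 was higher in every Old+PM library, at 4.97 to 8.14 CPM, than in every Old+YM library, at 2.80 to 3.93 CPM (log2 change 0.91, SE 0.35, adjusted p = 0.311). Tgfbr2 was lower in every Old+PM library, at 10.2 to 25.0 CPM, than in every Old+YM library, at 34.4 to 36.4 CPM (log2 change -0.95, SE 0.38, adjusted p = 0.327). Smad2 averaged 22.6 ± 5.58 CPM in Old+PM and 15.8 ± 2.29 CPM in Old+YM (SD, n = 3 each; log2 change 0.51, SE 0.21, adjusted p = 0.327). With Old 4 and Old+PM 3 left out the log2 changes were 1.05 for Tgfb1, -0.67 for Tgfbr2 and 0.35 for Smad2, and that of Bambi was -0.57, beside -1.09 (SE 0.77) with all libraries. Fibroblast markers summed to 197, 243 and 71.3 CPM in Old+PM 1 to 3 and to 210.5, 222.5 and 209 CPM in Old+YM 1 to 3, with overlap. Sums of macrophage markers did not overlap (144 to 233 CPM in Old+PM, 124 to 140 CPM in Old+YM). Nor did those of endothelial markers (487 to 557 CPM in Old+PM, 397 to 472 CPM in Old+YM). T and B cell markers summed to 3.89 to 5.87 CPM in Old+PM and 1.825 to 2.25 CPM in Old+YM. Sums of the other marker lists overlapped, and the part of cell types was not tested. The others of the 10 genes without overlap were Bmp7, higher in Old+PM, and Tgfbr1 and Bambi, lower in Old+PM. Smad3 had a log2 change of 0.25 (SE 0.16) and Smad7 one of -0.25 (SE 0.18).

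None of the 68 further genes passed in Old+PM against Old+YM in edgeR, and 8 had an unadjusted p under 0.05, against 12.8% of all genes. Groups did not overlap for 14 of the 68, against 23.8% of all genes. Itgb8 was at 71.7, 48.8 and 44.8 CPM in Old+PM 1 to 3, against 107, 120 and 126 CPM in Old+YM 1 to 3. These groups did not overlap, with a log2 change of -1.10 (SE 0.27), an adjusted p of 0.243 in edgeR and of 0.0324 in DESeq2. Id4 averaged 26.3 ± 6.93 CPM in Old+PM and 51.3 ± 19.7 CPM in Old+YM (SD, n = 3 each; log2 change -0.96, adjusted p = 0.266 in edgeR). Tgfbr3 averaged 23.6 ± 6.45 CPM in Old+PM and 35.6 ± 2.03 CPM in Old+YM (SD, n = 3 each; log2 change -0.59, adjusted p = 0.266). A p that misses the threshold with 3 libraries a group does not show that the formulas act alike.

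Set in order, mean Smad3 was 52.0 ± 10.8 CPM in Old+PM, 48.0 ± 5.16 in Old, 43.7 ± 5.41 in Old+YM and 34.0 ± 4.10 in Young (SD). Smad7 was 18.7 ± 3.05 CPM in Old, 17.5 ± 1.76 in Old+YM, 14.8 ± 0.915 in Old+PM and 11.5 ± 0.965 in Young. Neighbours among the 3 aged groups overlapped in both orders, for Smad7 in Old+PM and Old+YM by libraries at 15.6 and 15.5 CPM. Across the 16 libraries, the genes most like Smad3 among 10296 compared were Mgll, Hspb8 and Ephx1, with Pearson r of 0.883, 0.870 and 0.848. Most like Smad7 were Zfp362, Cyp2a5 and Gpc3, with r of 0.934, 0.910 and 0.896. These r describe libraries that share the split between Young and aged kidneys, and all 6 genes were higher in Old than in Young (adjusted p of 4.2e-08 to 0.00565 in edgeR).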

How the data were processed

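Kidney RNA of 16 libraries was measured with a LEXOGEN 3′ kit, per the labels' protocols. Per symbol, the deposited values are raw counts, whole numbers that the authors did not normalize. Bowtie2, bedtools and the mm10 build are named in the submitters' processing notes. The sources used here give no versions, annotation or strand setting.

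The analysis used edgeR 4.0.16 in R 4.3.3. Of the symbols, filterByExpr (minimum count 10, smallest group 3) removed 26214 and kept 14665. After TMM scaling all 16 libraries entered 1 robust quasi-likelihood fit with a term for group. The 4 comparisons were tested two-sided, with Benjamini-Hochberg adjustment over all genes. SE is the size of the log2 change divided by the square root of F. The script was tested on simulated data. Alternatives were upper quartile scaling, DESeq2 1.42.0, limma-voom (limma 3.58.1), no filter, only the 2 groups compared, the replicate number as a block, and each library left out in turn. Leaving out Old 4 and Old+PM 3 together was chosen after seeing the data. No pair of libraries within a group differed by as little as sampling noise.

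All 10 genes are named. Of the wider list, those past the threshold are named, at most the 12 with the smallest adjusted p, or the 3 with the smallest p where fewer than 3 passed. For each of the 10 that passed, the 3 genes of at least 5 CPM with the highest r of log2 CPM (prior count 2) are named. A gene that this rule names is counted in the totals of the wider list and is not reported here. The genes and lists were chosen with earlier results of these data known. Coordinates are GENCODE M21 on GRCm38. Ctgf is listed as Ccn2 in the files.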

Additional observations from a re-analysis of the deposited data

How the results depend on the processing

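In Old against Young, Smad3 and Smad7 passed in every one of the 23 alternatives, and the 10 genes kept their direction in all of them. The number of the 10 called, 2 in edgeR, was 4 with upper quartile scaling, 4 with Old 4 and Old+PM 3 both left out, and 2 to 4 with 1 library left out. With the replicate block it was 2 in Old against Young and 0 in each of the other comparisons. The replicate numbers do not pair the libraries (r of deviations from -0.09 to 0.16). The further pathway genes called in Old against Young, 16 in edgeR, were 15 with the replicate block and 11 to 21 over all alternatives. In Old+YM against Old, 0 in edgeR became 1 with DESeq2 (Id4) and 0 to 1 with 1 library left out. In Old+PM against Old+YM, 0 became 1 with DESeq2, 1 with only both groups compared in the fit (Itgb8 in each) and 0 to 1 with 1 library left out. Leaving out Young 5 gave the 1 in both.

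Some small changes in the treated comparisons, none past the threshold, turned sign. With Old 4 and Old+PM 3 both left out, Tgfb2 was at 0.0402 in Old+YM against Old, -0.19 in Old+PM against Old and -0.23 in Old+PM against Old+YM, and Tgfb3 at 0.054 in the last of these. With limma-voom, Tgfbr1 was at 0.0193 in Old+PM against Old. With 1 library left out, log2 changes in Old+YM against Old ran from -0.41 to 0.17 (Tgfb2), -0.017 to 0.79 (Tgfb3) and -0.14 to 0.00034 (Smad7). In Old+PM against Old they ran from -0.27 to 0.32 (Tgfb2), -0.13 to 0.14 (Tgfbr1), -0.0478 to 0.24 (Smad3), -0.56 to 0.0201 (Tgfbr2) and -0.0034 to 0.34 (Smad2). In Old+PM against Old+YM they ran from -0.23 to 0.56 (Tgfb2) and -0.36 to 0.26 (Tgfb3). The cause was not tested.

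Over all genes in Old against Young, 949 were called higher and 1046 lower, and with upper quartile scaling 1104 higher and 758 lower. The total of 1995 was 1238 without Young 4, 1207 without Old 5 and 3059 without both Old 4 and Old+PM 3. All genes called in Old+YM against Old were 3 in edgeR, 49 in DESeq2, 20 with only both groups in the fit and 0 to 41 with 1 library left out. They were 0 in 8 of these 16 fits (without Old 1, 2, 3 or 4, without any 1 of the Old+YM libraries, or without Young 3) and 41 without Young 5. In Old+PM against Old+YM they were 0 in edgeR, 58 in DESeq2, 15 with only both groups in the fit, 33 without Young 5 and 0 in the other 15 fits without 1 library. Depth limits Tgfb3, at 1 count in Young 2, and Bambi, at 4 counts in Old 4 and Old+PM 3. Of the further genes called, it limits Inhbb, with 23 counts summed over the 5 Young libraries, and Ltbp2, with 8.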

Other observations

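Some further genes of the pathway, chosen after their values were seen, were also low in Old+PM 3 and Old 4. Acvr1, a type I receptor for BMPs, was at 8.57, 5.31 and 1.14 CPM in Old+PM 1 to 3 and at 8.26, 6.504, 8.97, 2.24 and 6.49 CPM in Old 1 to 5. Old+PM 3 and Old 4 held the lowest values of their groups. Acvr1b, the activin type I receptor, was at 23.4, 18.6 and 7.35 CPM in Old+PM 1 to 3 and at 25.8, 18.9, 20.2, 7.70 and 16.7 CPM in Old 1 to 5, with the same libraries lowest. Ccn2, a matrix-associated target of TGF-beta, was at 39.9, 19.8 and 3.52 CPM in Old+PM 1 to 3, at 122, 147 and 72.8 CPM in Old+YM 1 to 3, and at 53.9, 21.8, 43.5, 7.41 and 64.1 CPM in Old 1 to 5. In Young 1 to 5 Ccn2 was at 5.06, 10.1, 26.3, 17.5 and 61.6 CPM, so that it spread widely within 3 of the groups. Dbp was at 146, 151 and 45.3 CPM in Old+PM 1 to 3 and at 149, 160 and 52.5 CPM in Old+YM 1 to 3, with replicate 3 the lowest in each. What sets these libraries apart was not tested.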
